A study of Mus musculus with 6 samples.

Results

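Fcer1g, Tyrobp, Hcst, Syk and Clnk encode the small signalling chains of activating immune receptors and a kinase and an adaptor that work with them. They were picked by symbol and are 5 of the 28048 genes in the deposited matrices. The choice was made with their genotype ratios in these same libraries known, so those ratios are given as a description.

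The experiment asked what early T cell progenitors become when they lack the Bcl11b timing enhancer, a distal regulatory element that sets when Bcl11b, a T-lineage transcription factor, is switched on. Bone marrow progenitors of C57BL/6 mice aged between 2 and 4 months, both sexes combined, were pooled from 6 to 8 mice per batch and grown on OP9-DL1, a mouse stromal line that expresses a Notch ligand. From these cultures 3 starting populations were sorted: CD44+CD25- cells (DN1), CD25+ cells that did not yet show the Bcl11b reporter (DN2a) and CD25+ cells that did (DN2b). They were cultured on this stroma for another 4 days with IL-7, IL-2, SCF and IL-15. The paper's methods also give Flt3-L, with IL-7, for every T-cell culture made in vitro. The RNA was then counted in single cells by sci-RNA-seq3, which barcodes fixed cells in successive rounds in plates and counts molecules by unique molecular identifiers (UMIs).

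WT cells were Bcl11b YFP/YFP and ΔTE cells carried the enhancer deletion on both of their YFP-tagged alleles. Both genotypes thus carried the reporter, and the deletion was in the germline and present in every cell of the ΔTE mice. Each of the 6 conditions (WT or ΔTE, DN1, DN2a or DN2b start) was 1 library, split over 3 reverse-transcription wells. The wells are technical parts of 1 culture, so genotype and culture cannot be told apart, no difference was tested, and the intervals given are 95% exact intervals that cover counting error only.

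A cell was kept if it had 200 genes or more, no more than 2000 UMIs and no more than 30% of them mitochondrial. This left 3401 to 19489 cells per library and 60671 in all, with 1717136 to 9048728 UMIs per library. No barcode was shared between libraries. Bcl11b itself stood at 235, 534 and 856 counts per 1000000 UMIs (CPM) in the WT DN1, DN2a and DN2b libraries and at 89.3, 256 and 539 CPM in the ΔTE libraries. The 9 genes of a T cell marker list that were in the matrices summed to 96.5 to 126 CPM after the DN1 start and 793 to 802 CPM after the DN2b start, and Cd8b1, a marker of later thymocytes, was at 0 in all 6 libraries. Well 2 of the ΔTE DN2a library stood apart: 1154 of 4490 genes (25.7%) were over 1.5-fold away from the other wells of that library, against 0.033% to 2.8% in the wells of the other libraries. Its UMIs were tilted to genes of short span (median log2 difference 0.82 in the shortest of 4 equal groups of genes by span and -0.28 in the longest), and well 1 of the ΔTE DN2b library had the same tilt in a milder form (0.38 and -0.19). Genotype ratios that rest on these wells are therefore given with and without them where they matter.

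Fcer1g encodes the FcRγ chain and Tyrobp encodes DAP12. Both are short membrane proteins that bind receptors with little signalling capacity of their own, and both carry an immunoreceptor tyrosine-based activation motif (ITAM), a pair of spaced tyrosines. When the receptor is engaged, Src family kinases phosphorylate the tyrosines, and the kinase Syk binds them and passes the signal on. Hcst encodes DAP10, which has a short motif that recruits PI3 kinase in place of an ITAM, and Clnk encodes an adaptor of the SLP-76 family found in cytokine-driven haematopoietic cells. FcRγ and DAP12 are best known from mast cells, myeloid cells, NK cells and innate lymphoid cells (ILCs), whereas T cells signal mainly through the ITAMs of the CD3 chains.

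The stretches of coding sequence that hold these motifs show how the chains differ, and are printed from GENCODE M21 transcripts with the codons of the tyrosines in capitals.

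Fcer1g, codons 65 to 79 of 86: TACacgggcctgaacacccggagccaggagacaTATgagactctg

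Tyrobp, codons 92 to 106 of 114: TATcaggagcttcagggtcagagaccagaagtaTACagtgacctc

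Hcst, codons 72 to 75 of 79: TACatcaacatg

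The stretches of Fcer1g and Tyrobp each cover 15 codons with a tyrosine codon at the start and another after the spacer. The Hcst stretch covers 4 codons and holds a single tyrosine codon.

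On GRCm38, Fcer1g lies on chromosome 1 (171229572 to 171234365, minus strand), Syk on chromosome 13 (52583173 to 52648792, plus strand) and Clnk on chromosome 5 (38706462 to 38876812, minus strand). Tyrobp (30413760 to 30417585, plus strand) and Hcst (30417712 to 30419854, minus strand) are neighbours on chromosome 7 that face each other tail to tail, with 126 bases between their annotated ends. The sources used here do not say whether the counting used strand, so reads that run past either end could be given to the neighbour. Fcer1g, Tyrobp and Hcst are short (4.79, 3.83 and 2.14 kb), and Syk and Clnk are long (65.6 and 170.4 kb), which places them on opposite sides of the tilt of well 2.

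Fcer1g and Clnk had like patterns in the values below and Hcst had another, so the promoters of these 3 genes are printed (RefSeq, GRCm38.p6, 250 bases before and 50 after the start, 5′ to 3′ on the strand of the gene). No RefSeq promoter was found for Tyrobp, also higher in ΔTE after every start, so it is missing from this comparison. Capitals mark the letters TGTGGT or ACCACA, the core bound by Runx factors on either strand, and AGGAAG or CTTCCT, a core bound by Ets factors.

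Fcer1g, chr1:171234300-171234599, minus strand: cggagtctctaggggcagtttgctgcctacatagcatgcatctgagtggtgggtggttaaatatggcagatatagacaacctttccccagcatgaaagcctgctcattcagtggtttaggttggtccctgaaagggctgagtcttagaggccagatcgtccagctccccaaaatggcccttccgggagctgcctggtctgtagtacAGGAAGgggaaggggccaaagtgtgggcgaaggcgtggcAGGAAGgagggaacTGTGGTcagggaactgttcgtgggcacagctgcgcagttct

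Clnk, chr5:38876644-38876943, minus strand: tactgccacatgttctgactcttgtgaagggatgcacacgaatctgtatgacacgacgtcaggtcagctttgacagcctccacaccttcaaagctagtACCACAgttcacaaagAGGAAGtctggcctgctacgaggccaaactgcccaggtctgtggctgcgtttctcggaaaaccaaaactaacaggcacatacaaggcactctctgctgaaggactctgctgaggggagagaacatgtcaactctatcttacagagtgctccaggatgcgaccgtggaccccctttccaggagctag

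Hcst, chr7:30419805-30420104, minus strand: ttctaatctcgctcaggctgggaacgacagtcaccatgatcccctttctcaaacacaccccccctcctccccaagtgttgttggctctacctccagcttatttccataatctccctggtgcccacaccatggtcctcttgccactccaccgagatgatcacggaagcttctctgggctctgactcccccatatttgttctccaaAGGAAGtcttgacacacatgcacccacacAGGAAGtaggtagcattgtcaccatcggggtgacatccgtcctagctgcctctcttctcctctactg

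The Fcer1g promoter holds 1 Runx core and 2 Ets cores within 50 bases of the start, the Clnk promoter holds 1 of each upstream, and the Hcst promoter holds 2 Ets cores and no Runx core. Of 32851 mouse promoters of this length, 16.8% hold the Runx core and 35.4% the Ets core, so neither is rare. In the 2 listed promoters of Syk neither core was present. AGATAA or TTATCT, read by GATA factors, was in none of these promoters and is in 11.2% of all, and the E-box CAGCTG was in those of Fcer1g and Syk and is in 16.3% of all. These are matches of letters in 300 bases, and factor binding was not measured here.

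Fcer1g was higher in ΔTE than in WT cells after every start. From the DN1 to the DN2b start its level was much lower in WT and only a little lower in ΔTE. After the DN1 start, Fcer1g stood at 117, 118 and 142 CPM in the 3 WT wells and at 212, 218 and 232 CPM in the 3 ΔTE wells. After the DN2a start, the WT wells held 114, 101 and 124 CPM and the ΔTE wells 234, 349.5 and 231 CPM. After the DN2b start, the WT wells held 49.4, 41.3 and 40.2 CPM and the ΔTE wells 219, 169.8 and 173 CPM. The wells of the genotypes did not overlap after any start, and the high value among the ΔTE DN2a wells was well 2. Between the genotypes, all ΔTE wells were above all WT wells for 8.25% of tested genes after the DN1 start, 2.92% after the DN2a start and 7.72% after the DN2b start. For Fcer1g the log2 ratio, ΔTE over WT, was 0.78 (0.65 to 0.92) after the DN1 start, 1.24 (1.13 to 1.36) after the DN2a start and 2.15 (1.84 to 2.47) after the DN2b start, or 1.72-, 2.37- and 4.44-fold. Without well 2 of the ΔTE DN2a library the DN2a ratio was 1.05 (0.93 to 1.18). Without well 1 of the ΔTE DN2b library the DN2b ratio was 2.02 (1.67 to 2.36).

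Ordered by level, the 3 ΔTE libraries came first for Fcer1g, at 266 CPM (DN2a), 219.9 CPM (DN1) and 189 CPM (DN2b), and the 3 WT libraries followed at 128 CPM (DN1), 113 CPM (DN2a) and 42.5 CPM (DN2b). Among these neighbours, the wells were apart only between ΔTE DN2b and WT DN1 and between WT DN2a and WT DN2b. In WT the DN1 library was 3.01-fold above the DN2b library, and in ΔTE 1.17-fold with overlapping wells. From the DN2a to the DN2b start Fcer1g was 2.65-fold lower in WT and 1.41-fold lower in ΔTE (log2 ratio -0.50, -0.67 to -0.33).

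Tyrobp was also higher in ΔTE after every start, with its largest ratio after the DN2b start, but it followed the start in both genotypes. After the DN1 start, Tyrobp stood at 141, 141 and 145 CPM in the WT wells and at 186, 180.2 and 202 CPM in the ΔTE wells. After the DN2a start, the WT wells held 69.7, 80.1 and 61.7 CPM and the ΔTE wells 100.01, 139.9 and 91.5 CPM. After the DN2b start, the WT wells held 5.29, 18.2 and 9.69 CPM, which rest on 3, 15 and 13 UMIs, and the ΔTE wells 86.8, 58.5 and 61.9 CPM. The genotypes did not overlap after any start. On the log2 scale the ΔTE to WT ratio was 0.40 (0.27 to 0.53), 0.62 (0.47 to 0.78) and 2.62 (2.04 to 3.24) after the DN1, DN2a and DN2b starts, or 1.32-, 1.54- and 6.16-fold. Without well 2 the DN2a ratio of Tyrobp was 0.45 (0.27 to 0.63), or 1.37-fold, with the ΔTE wells still above the WT wells. Without well 1 of the ΔTE DN2b library its DN2b ratio was 2.41 (1.77 to 3.07).

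From the DN1 to the DN2b start, the level of Tyrobp was 12.6-fold lower in WT and 2.70-fold lower in ΔTE cells, with the wells of successive starts apart in both genotypes. Wells of successive starts did not overlap, in either direction, for 45% of tested genes between WT DN1 and DN2a, 36.3% between WT DN2a and DN2b, 20.1% between ΔTE DN1 and DN2a and 14% between ΔTE DN2a and DN2b. In the order of the libraries, WT DN2a (70.9 CPM) and ΔTE DN2b (69.9 CPM) did not differ beyond their wells, and every other pair of neighbours did. The ΔTE cells of the DN2b start thus held Tyrobp at the level of WT cells of the DN2a start.

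Hcst, the DAP10 gene next to Tyrobp, did not share this pattern. After the DN1 start it stood at 24.0, 18.3 and 25.8 CPM in the WT wells and at 25.6, 12.0 and 14.2 CPM in the ΔTE wells. After the DN2a start, the WT wells held 22.8, 24.5 and 24.998 CPM and the ΔTE wells 17.6, 20.5 and 27.5 CPM. After the DN2b start, the WT wells held 24.7, 24.3 and 22.4 CPM and the ΔTE wells 37.0, 32.1 and 35.4 CPM. The genotypes overlapped after the DN1 and DN2a starts and were apart after the DN2b start. The log2 ratio of Hcst was -0.37 (-0.75 to 0.0056), -0.21 (-0.54 to 0.11) and 0.58 (0.044 to 1.11). Without well 1 of the ΔTE DN2b library the last of these was 0.53 (-0.097 to 1.13). The WT libraries were level across the starts (23.0, 24.2 and 23.4 CPM), and in ΔTE the DN2b library was 1.96-fold above the DN1 library. With 60 to 219 UMIs per library, smaller differences in Hcst were not detectable at this depth.

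Among the other annotated neighbours on chromosome 7, Nfkbid, which encodes an atypical IκB protein, was the only one of 4 genes (Nfkbid, Lrfn3, Aplp1 and Nphs1) with at least 50 UMIs in all. Its log2 ratio was -0.25, -0.049 and -0.39 after the DN1, DN2a and DN2b starts, with an interval that included 0 each time.

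**Figure D1:**
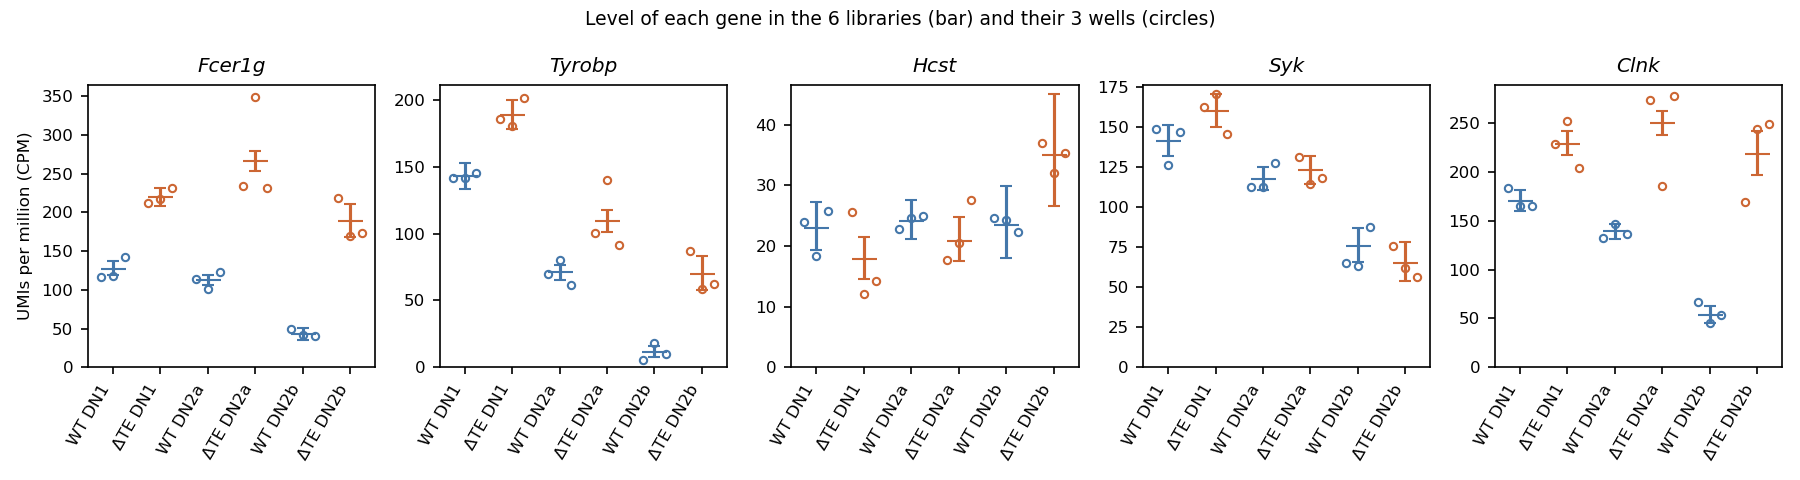
Level of the 5 genes in CPM (y axis, starting at 0) in the WT (blue) and ΔTE (orange) libraries of each start. Circles are the 3 reverse-transcription wells, horizontal bars the whole library and vertical bars its 95% Poisson interval. For Fcer1g, Tyrobp and Clnk the ΔTE circles lie above the WT circles after every start, and for Syk they overlap.

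Syk, the kinase that docks on phosphorylated ITAMs, followed the start and not the genotype. After the DN1 start it stood at 149, 126 and 147 CPM in the WT wells and at 163, 171 and 146 CPM in the ΔTE wells. After the DN2a start the WT wells held 113, 113 and 128 CPM and the ΔTE wells 131, 114 and 118 CPM, and after the DN2b start 65.2, 63.2 and 87.9 CPM and 75.6, 62.3 and 56.6 CPM. The genotypes overlapped after every start. On the log2 scale the ΔTE to WT ratio was 0.18 (0.046 to 0.32), 0.067 (-0.069 to 0.20) and -0.22 (-0.56 to 0.12), so that the intervals after the DN2a and DN2b starts included no difference. From the DN1 to the DN2b start the level of Syk was 1.87-fold lower in WT and 2.46-fold lower in ΔTE cells, with wells apart.

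Clnk resembled Fcer1g. After the DN1 start it stood at 183, 165 and 165 CPM in the WT wells and at 229, 252 and 204 CPM in the ΔTE wells. After the DN2a start the WT wells held 132, 146 and 137 CPM and the ΔTE wells 274, 185 and 278 CPM, and after the DN2b start 67.0, 45.0 and 53.7 CPM and 169, 243 and 249 CPM. The genotypes did not overlap after any start, and the low ΔTE values were well 2 of the DN2a library and well 1 of the DN2b library. The log2 ratio was 0.43 (0.31 to 0.55), 0.84 (0.74 to 0.95) and 2.02 (1.74 to 2.31), or 1.35-, 1.79- and 4.06-fold. Without well 2 the DN2a ratio was 0.99 (0.87 to 1.10), and without well 1 of the ΔTE DN2b library the DN2b ratio was 2.20. In ΔTE the libraries held 229, 249.5 and 218 CPM across the starts with overlapping wells, whereas in WT the DN1 library was 3.16-fold above the DN2b library.

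By size, 1 of the 5 genes (Fcer1g) was over 1.5-fold higher in ΔTE after the DN1 start, where 3.17% of 11452 tested genes were. After the DN2a start 3 of 5 were (Fcer1g, Tyrobp and Clnk), against 2.62% of 12214 genes, and without well 2 it was 2 of 5 against 2.74% of 12010 genes. After the DN2b start the same 3 of 5 were, against 5.57% of 10073 genes. None of the 5 was over 1.5-fold lower after any start, where 5.05%, 11.5% and 8.83% of tested genes were. Hcst lay just under the limit after the DN2b start, at 1.49-fold. The median log2 ratio of all tested genes was -0.0041, -0.15 and -0.023 after the 3 starts. The shift after the DN2a start was -0.0067 with TMM scaling, which moved the split of all genes there from 320 higher and 1407 lower to 486 higher and 976 lower. Mitochondrial UMIs took a median of 13.3% of a cell in the WT DN2a library and 20.9% in the ΔTE DN2a library. With totals that leave them out, the DN2a ratio of Fcer1g was 1.37 and that of Clnk 0.97.

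In bulk sums of this kind, more cells with a transcript and more transcript per cell cannot be told apart, and cells of other lineages were part of each culture. A list of 17 ILC and NK genes, of which 12 to 17 had a UMI in each library, summed to 683, 847 and 869 CPM in WT and 661, 879 and 1482 CPM in ΔTE libraries after the DN1, DN2a and DN2b starts. Of this list, Klre1 was at 0 in 4 libraries, Klrb1b in 3, Klrb1c and Eomes in both DN1 libraries, Il2rb in the WT DN1 library and Il1rl1 in the ΔTE DN2b library. A list of 13 myeloid genes, 10 to 13 with a UMI, summed to 502, 148 and 157 CPM in WT and 423, 227 and 343 CPM in ΔTE, with Elane and Cebpe at 0 in both DN2b libraries. A list of 8 mast cell or basophil genes, 3 to 7 with a UMI, summed to 423, 605 and 468 CPM in WT and 523, 749 and 522 CPM in ΔTE. Cpa3 gave 96.6% of the UMIs of that list in the cells it picked, and Fcer1a, the receptor chain that defines both cell types, was at 0 in every library. A list of 8 stromal genes summed to 309, 1343 and 469 CPM in WT and 165, 794 and 217 CPM in ΔTE.

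In the 41.9% to 52.3% of cells without a UMI of any of these 4 lists, Fcer1g kept its ratios, at 0.85 (0.64 to 1.06), 1.14 (0.95 to 1.34) and 2.19 (1.67 to 2.73). The ratio of Tyrobp after the DN2b start was 1.38 (0.25 to 2.57) in these cells, down from 2.62 in all cells, and after the DN2a start 0.39 (0.11 to 0.66). That of Clnk was 0.28 (0.097 to 0.46), 0.76 (0.58 to 0.95) and 1.32 (0.80 to 1.84). Hcst after the DN2b start went from 0.58 to -0.16 (-1.16 to 0.79), so its difference there was not seen in these cells. At a median of 386 to 485 UMIs per cell, a cell without a marker UMI can still belong to these lineages. These ratios therefore do not separate the lineages from the other cells.

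**Figure D2:**
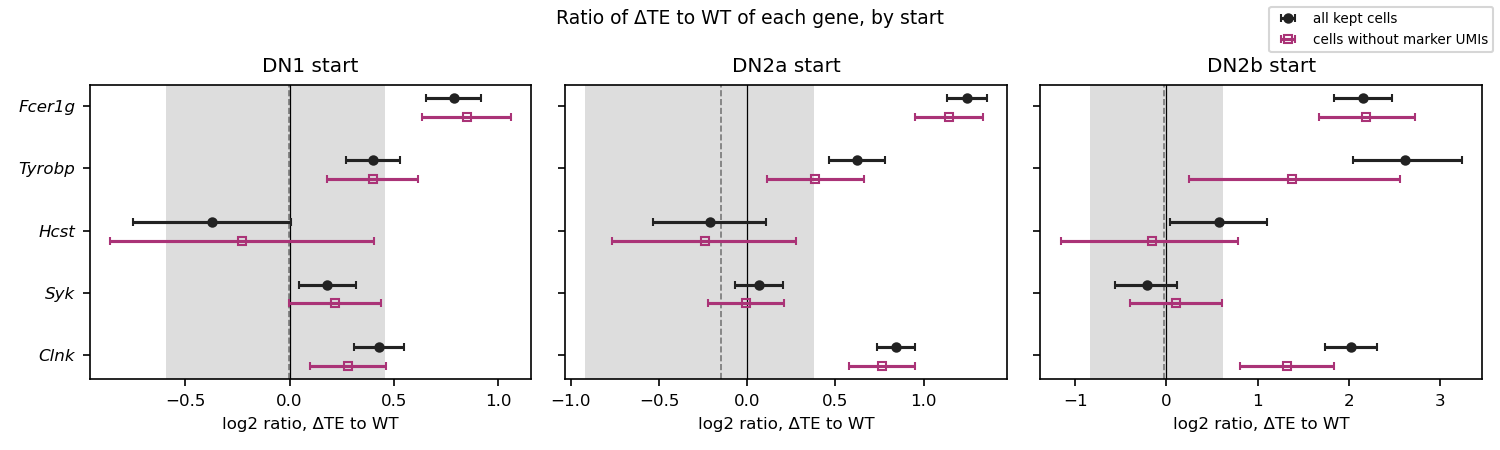
Log2 ratio of ΔTE to WT (x axis, a scale of its own for each start) of the 5 genes in all kept cells (black circles) and in cells without a UMI of the ILC, myeloid, mast cell or stromal lists (open squares), with 95% intervals for counting error. The grey band spans the 5th to the 95th percentile of all tested genes and the dashed line is their median. Fcer1g lies outside the band in all 3 panels and Syk inside it.

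Fcer1g was spread thinly over many cells. It had a UMI in 5.97%, 4.54% and 1.87% of the kept cells of the WT libraries and 10.6%, 11.9% and 7.79% of those of the ΔTE libraries, and at most 5 UMIs in any cell. After thinning each cell to 300 UMIs, which left out 462 to 4723 shallower cells per library, the shares were 3.55% (3.19 to 3.94), 3.16% (2.89 to 3.46) and 1.02% (0.74 to 1.36) in WT and 6.30% (5.82 to 6.81), 7.57% (7.06 to 8.10) and 5.41% (4.62 to 6.29) in ΔTE. Cells picked by stromal genes, which should lack Fcer1g, had a share of 0.92%, 0.48% and 0% in WT and 0.76%, 2.26% and 0% in ΔTE. The zeros come from 147 and 44 stromal cells and allow up to 2.48% and 8.04%. The upper stromal interval after the ΔTE DN2a start reached 3.77%, below the share of all cells there. Before thinning, the stromal cells were deeper than the others, with a median of 503 to 674 UMIs against 386 to 485 UMIs for all cells.

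Tyrobp was detected in 3.97% (3.58 to 4.37), 2.12% (1.89 to 2.37) and 0.41% (0.24 to 0.64) of thinned WT cells and in 5.79% (5.33 to 6.29), 3.04% (2.72 to 3.40) and 1.80% (1.35 to 2.35) of thinned ΔTE cells. The stromal shares were 1.83%, 0.75% and 0% in WT and 2.29%, 0.97% and 0% in ΔTE. Clnk was detected in 4.86%, 3.84% and 1.59% of WT and 6.17%, 6.98% and 5.51% of ΔTE cells, with stromal shares of 0.92%, 0.88% and 0% and of 2.29%, 0.65% and 0%. For Hcst the shares were between 0.52% and 0.95%. The share over all cells lay within the interval of the stromal cells in 5 of 6 libraries for Hcst, 4 for Tyrobp and Syk, 3 for Clnk and 2 for Fcer1g, and such a share was not separable from background.

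Sums over cells picked by marker UMIs showed which cells held the adaptors. A cell was assigned to a list when it had at least 2 UMIs of that list and more than of any other, and 46286 of 60671 cells were assigned to none. Summed over libraries, Tyrobp stood at 357 CPM (314 to 404) in 1116 cells of the myeloid list, led by Mpo and Ccr2, at 208 CPM (177 to 243) in 1149 cells of the progenitor list, led by Bcl11a, at 149 CPM (135 to 164) in 4255 cells of the ILC or NK list, led by Gzmb and Nkg7, and at 98.0 CPM (84.5 to 113) in 2843 Cpa3 cells. It stood at 31.8 CPM (22.6 to 43.5) in 2077 cells of the T cell list, led by Cd3g, and at 32.7 CPM (25.2 to 41.8) in 2876 cells of the stromal list, led by Col1a2. Within libraries the myeloid group held the highest Tyrobp level of these 6 groups in 5 of 6, and in the WT DN2b library it held no Tyrobp UMI. After the ΔTE DN2b start this rank rests on 6 UMIs (232 CPM, 85.1 to 505) against 192 CPM (144 to 251) in the ILC or NK group. After the WT DN2a start it rests on 11 UMIs (215 CPM, 108 to 385) against 140 CPM (76.8 to 236) in the progenitor group.

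Fcer1g was more even in these sums over libraries. It stood at 225, 212 and 206 CPM in the myeloid, Cpa3 and Gzmb groups, at 141 CPM in the Bcl11a group, at 104 CPM (86.4 to 123) in the Cd3g group and at 42.9 CPM (34.2 to 53.1) in the stromal group. In each WT library the myeloid group was highest (219, 196 and 181 CPM, the last from 4 UMIs). In ΔTE the highest was the Cpa3 group after the DN1 start (265 CPM) and the Gzmb group after the DN2a and DN2b starts (343 and 301 CPM). The interval of the highest group overlapped that of the next in each library. Clnk stood at 271 CPM (252 to 291) in the Gzmb group, 226 CPM (192 to 264) in the myeloid group, 123 CPM in the Cd3g group and 27.6 CPM in the stromal group. This order did not hold within every library: the myeloid group stood above the Gzmb group after both DN2a starts, at 313 against 202 CPM in WT and 523 against 410.2 CPM in ΔTE. Syk ranged from 103 to 183 CPM in the myeloid, Cpa3, Gzmb, Bcl11a and Cd3g groups and stood at 33.7 CPM in the stroma. In 69 cells of the B cell list, led by Ebf1, Syk stood at 51.6 CPM (6.25 to 186). The cells assigned to no list held Fcer1g at 168 CPM and Tyrobp at 104 CPM. These sums weight the libraries by their cells, and the groups rest on few UMIs per cell, and 5046 cells had a single UMI of the myeloid list, just under the minimum, while 982 had exactly 2.

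**Figure D3:**
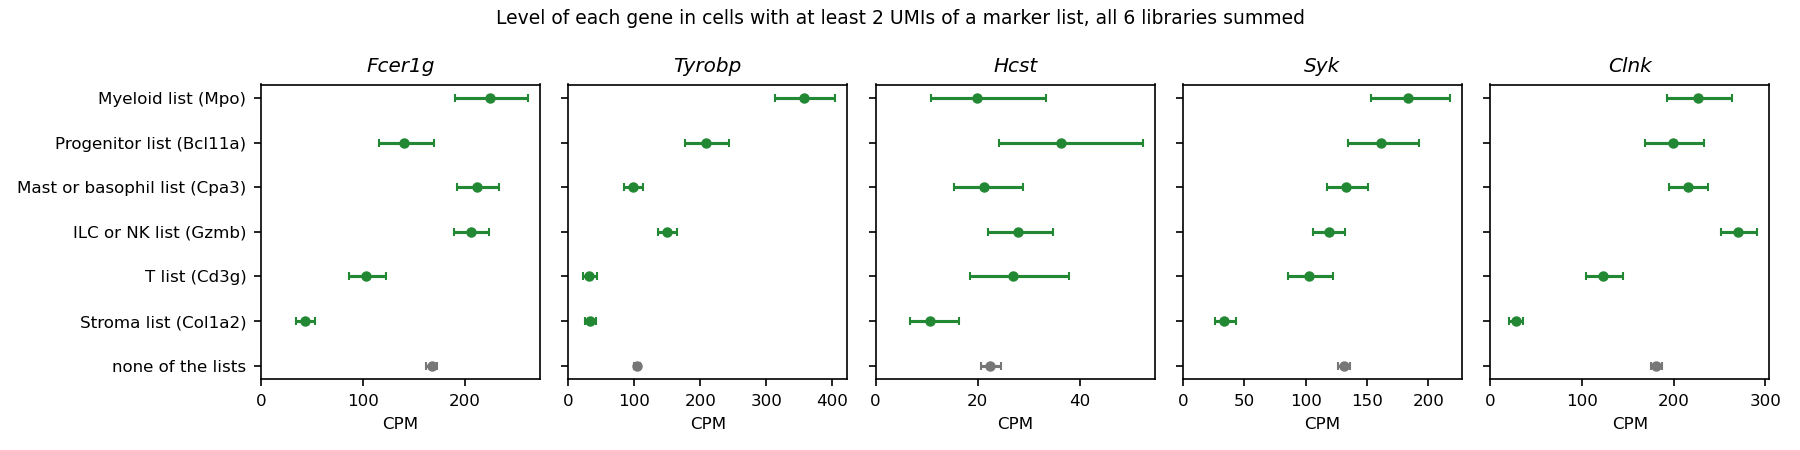
Level of the 5 genes in CPM (x axis, starting at 0) in cells assigned to a marker list by at least 2 UMIs, summed over the 6 libraries, with 95% Poisson intervals. The gene in brackets gave the most UMIs of its list. Tyrobp peaks in the myeloid group at 357 CPM and is near 32 CPM in the Cd3g and stromal groups.

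The genotype difference was present within most of these groups. Fcer1g was higher in ΔTE in 16 of the 17 pairs of group and start with enough UMIs, with an interval above 0 in 11. The exception was the myeloid group after the DN1 start, with 219 CPM in WT and 211 CPM in ΔTE. Tyrobp was higher in ΔTE in 14 of 14 pairs (interval above 0 in 7) and Clnk in 15 of 17 (10), whereas Syk was higher in 7 of 15 and Hcst in 4 of 9. The pairs include the stromal group after the DN2a start and the cells assigned to no list. Those unassigned cells had intervals above 0 for Fcer1g and Tyrobp after every start. A pair entered on the UMIs of both genotypes together, so it could enter through the genotype where the gene was high. Shares over all genes within these groups are not given here. In the Gzmb group after the DN2b start, WT and ΔTE cells held 50.8 and 301 CPM of Fcer1g, 23.7 and 192 CPM of Tyrobp and 139 and 526 CPM of Clnk. In the Cd3g group after the DN2b start, Fcer1g stood at 30.1 and 118 CPM (log2 ratio 1.97, 0.72 to 3.32) and Clnk at 23.4 and 125 CPM (2.41, 1.09 to 3.91). In cells assigned to no list after the DN2b start, Fcer1g stood at 41.9 and 172 CPM and Tyrobp at 13.0 and 45.9 CPM. The stromal group after the DN2a start also had more Fcer1g in ΔTE (25.8 and 82.3 CPM, log2 ratio 1.67, 0.93 to 2.43).

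Detection was also compared within each library between cells with and without a Bcl11b UMI. In cells thinned to 300 UMIs, the share with Fcer1g was lower in cells with a Bcl11b UMI than in cells without one in 6 of 6 libraries, with separate intervals in 2. After the WT DN2a start the shares were 2.14% (1.55 to 2.88) of 2007 cells and 3.32% (3.02 to 3.65) of 12759 cells, and after the ΔTE DN1 start 2.70% (1.00 to 5.79) of 222 cells and 6.39% (5.89 to 6.91) of 9062 cells. For Tyrobp the share was lower with Bcl11b in 6 of 6 libraries, with separate intervals in 3, among them 0.45% (0.011 to 2.48) against 5.93% (5.45 to 6.43) after the ΔTE DN1 start. Clnk was lower with Bcl11b in 5 of 6 libraries and Syk in 5 of 6, and Hcst in 3 of 6. Among cells without a Bcl11b UMI, WT had a Fcer1g share of 1.18% (0.85 to 1.59) after the DN2b start, and ΔTE had one of 5.60% (4.74 to 6.57). At 300 UMIs a cell without a Bcl11b UMI can still express the gene.

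**Figure D4:**
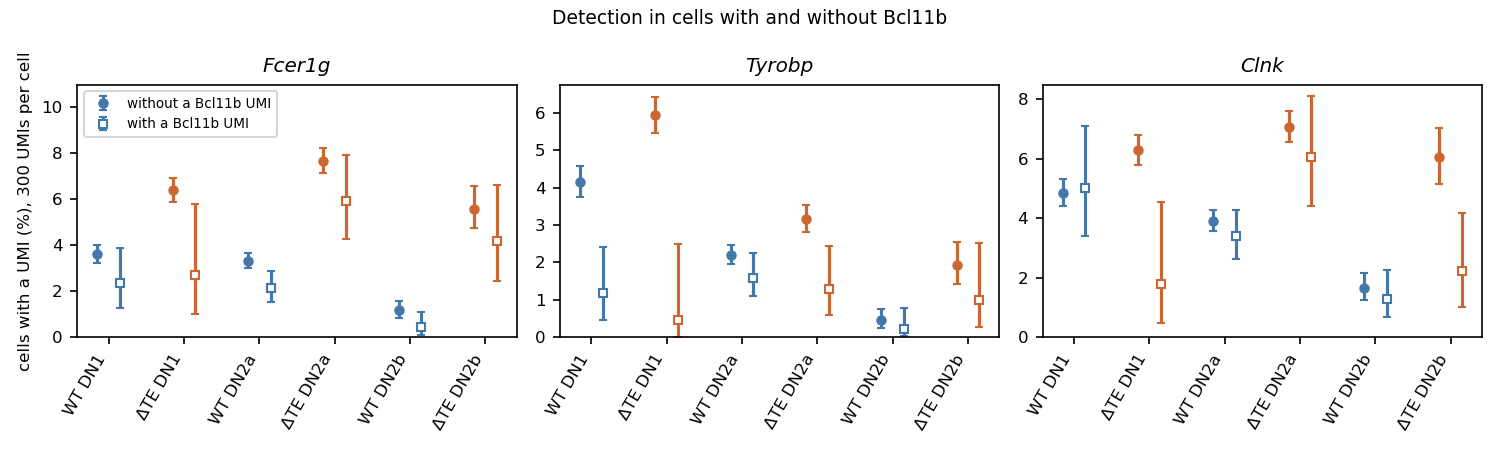
Percent of cells (y axis, starting at 0) with a UMI of Fcer1g, Tyrobp or Clnk among cells without (filled circles) and with (open squares) a Bcl11b UMI, each cell thinned to 300 UMIs, in the WT (blue) and ΔTE (orange) libraries, with 95% Clopper-Pearson intervals. For Fcer1g and Tyrobp the open squares lie below the filled circles in all 6 libraries.

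Cells with a Fcer1g UMI had Tyrobp more often than cells without one in 5 of 6 libraries, with overlapping intervals in every library. After the ΔTE DN1 start the shares were 8.21% (6.11 to 10.7) of 585 cells and 5.63% (5.16 to 6.14) of 8699 cells. For Clnk the share was higher beside Fcer1g in 5 of 6 libraries, with separate intervals in 1, the ΔTE DN2b library, at 10.7% (6.35 to 16.6) against 5.22% (4.42 to 6.11). The levels over the 18 wells had a Pearson r of 0.90 between Fcer1g and Clnk, 0.81 between Fcer1g and Tyrobp, 0.74 between Tyrobp and Syk and -0.64 between Hcst and Syk. These wells share 6 cultures, so r describes the libraries. They include the tilted wells of the ΔTE DN2a and DN2b libraries, and r without those wells is not given here.

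Of 9811 genes with at least 200 UMIs, those most like Fcer1g over the 18 wells were Nrgn, a calmodulin-binding protein (r 0.96), Tmem173, the STING adaptor of cytosolic DNA sensing (0.91), Clec12a, an inhibitory myeloid C-type lectin (0.91), Cd72, an inhibitory lectin of B cells (0.91), and Emid1 (0.91). Those most like Tyrobp were Cd244a, a receptor of NK cells (0.97), St3gal5, the synthase of the ganglioside GM3 (0.95), and Itga2b, the integrin chain of megakaryocytes and early progenitors (0.95). For Hcst they were Sike1, Emb and Vps26a, at 0.81, 0.79 and 0.79. The tilted wells are included in these values too, so a shared gene span can add to a likeness.

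Many of the receptors listed as partners of these chains were at the floor of detection. Of 14 genes listed as partners of FcRγ, 9 had fewer than 20 UMIs over all 6 libraries, and of 15 partners of DAP12, 8 did. Fcer1a, the IgE-binding chain that gives Fcer1g its name, had no UMI, and Ms4a2, the other chain of the mast cell receptor, had 7. Clec4e, named here after its values were seen, encodes Mincle, a C-type lectin of myeloid cells that signals through FcRγ, and had 1016 UMIs in all. It stood at 31.5, 34.0 and 22.0 CPM in WT and 36.8, 30.1 and 30.3 CPM in ΔTE, with log2 ratios of 0.22 (-0.065 to 0.51), -0.18 (-0.45 to 0.086) and 0.46 (-0.10 to 1.02), and ΔTE wells stood above WT wells after the DN2b start alone. Klrk1 and Ncr1 are receptors of NK cells and ILCs. Klrk1 encodes NKG2D, the partner of DAP10 and in mice also of DAP12, and stood at 1.501, 1.22 and 2.93 CPM in WT and 2.88, 9.97 and 30.9 CPM in ΔTE after the DN1, DN2a and DN2b starts. Its log2 ratio was 0.94 (-0.31 to 2.29), 3.04 (2.10 to 4.11) and 3.40 (2.32 to 4.68), with ΔTE wells above WT wells after the DN2a and DN2b starts. Ncr1, which encodes NKp46, a partner of FcRγ, stood at 0.88 and 6.01 CPM after the DN2a start and 1.46 and 19.8 CPM after the DN2b start in WT and ΔTE (log2 ratio 2.77, 1.64 to 4.08, and 3.76, 2.27 to 5.71). Both genes were also on the ILC and NK marker list above.

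Fcgr3, an activating IgG receptor that signals through FcRγ, was 7.01 and 11.5 CPM after the DN1 start and 3.76 and 7.59 CPM after the DN2a start in WT and ΔTE, with 1 UMI in each library after the DN2b start. Pilrb1, a DAP12 partner, had 13 and 26 UMIs after the DN1 start and 11 and 13 UMIs after the DN2a start in WT and ΔTE, with ratios of 1.02 (0.011 to 2.11) and 0.76 (-0.52 to 2.06). Fcgr2b was on the FcRγ list but encodes an inhibitory IgG receptor that does not use the chain, and it was lower in ΔTE, at 52.2 and 37.5 CPM, 42.3 and 27.5 CPM and 28.9 and 13.4 CPM after the DN1, DN2a and DN2b starts. Of the FcRγ list, 1 of 4, 2 of 4 and 1 of 3 tested genes were over 1.5-fold higher in ΔTE after the 3 starts (Fcgr3, then Fcgr3 and Ncr1, then Ncr1), and 1 gene was lower each time (Clec4n after the DN1 start, then Fcgr2b). Of the DAP12 list, 3 of 7, 3 of 3 and 1 of 1 tested genes were higher (Klrk1, Pilrb1 and Sirpb1a, then Klrk1, Pilrb1 and Cd300lb, then Klrk1), and 2, 0 and 0 were lower (Trem3 and Clec5a). Clec4n, Sirpb1a, Cd300lb, Trem3 and Clec5a are named here after their values were seen. Over all tested genes, 3.17%, 2.62% and 5.57% were over 1.5-fold higher and 5.05%, 11.5% and 8.83% lower after the DN1, DN2a and DN2b starts, and with this few members tested the counts say little about either list. Tested here means at least 20 UMIs in the 2 libraries together, so that a gene could enter through the library where it was high.

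The CD3 chains carry the ITAMs of the T cell receptor. Cd3g, Cd3d and Cd3e were lower in ΔTE after the DN1 and DN2a starts. Cd3g stood at 78.7, 309 and 529 CPM in WT and 25.8, 134 and 439 CPM in ΔTE, with log2 ratios of -1.61 (-1.88 to -1.34), -1.20 (-1.32 to -1.09) and -0.27 (-0.40 to -0.14), and the ΔTE wells were below the WT wells after every start. All 3 ΔTE wells were below all 3 WT wells for 8.25%, 16.2% and 9.31% of tested genes after the DN1, DN2a and DN2b starts. Cd3d had ratios of -1.06, -1.31 and -0.11 and Cd3e of -1.56, -1.03 and -0.86. After the DN2b start the wells of the genotypes overlapped for both, with intervals of -0.42 to 0.20 for Cd3d and -1.45 to -0.30 for Cd3e. Cd247, the CD3ζ chain, which also serves NK receptors, was the exception: its ratio was 0.00060, 0.23 (0.11 to 0.34) and 0.46 (0.30 to 0.61), and the ΔTE wells were above the WT wells after the DN2b start. Cd79b, an ITAM chain of the B cell receptor, had ratios of -0.32, -1.05 and -0.20. Of the 5 tested chains other than FcRγ and DAP12, 3, 4 and 1 were over 1.5-fold lower in ΔTE after the DN1, DN2a and DN2b starts and none was higher, against 5.05%, 11.5% and 8.83% of all tested genes lower. Where Fcer1g and Tyrobp had their largest ratios, after the DN2b start, Cd3g and Cd3d had their smallest.

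**Figure D5:**
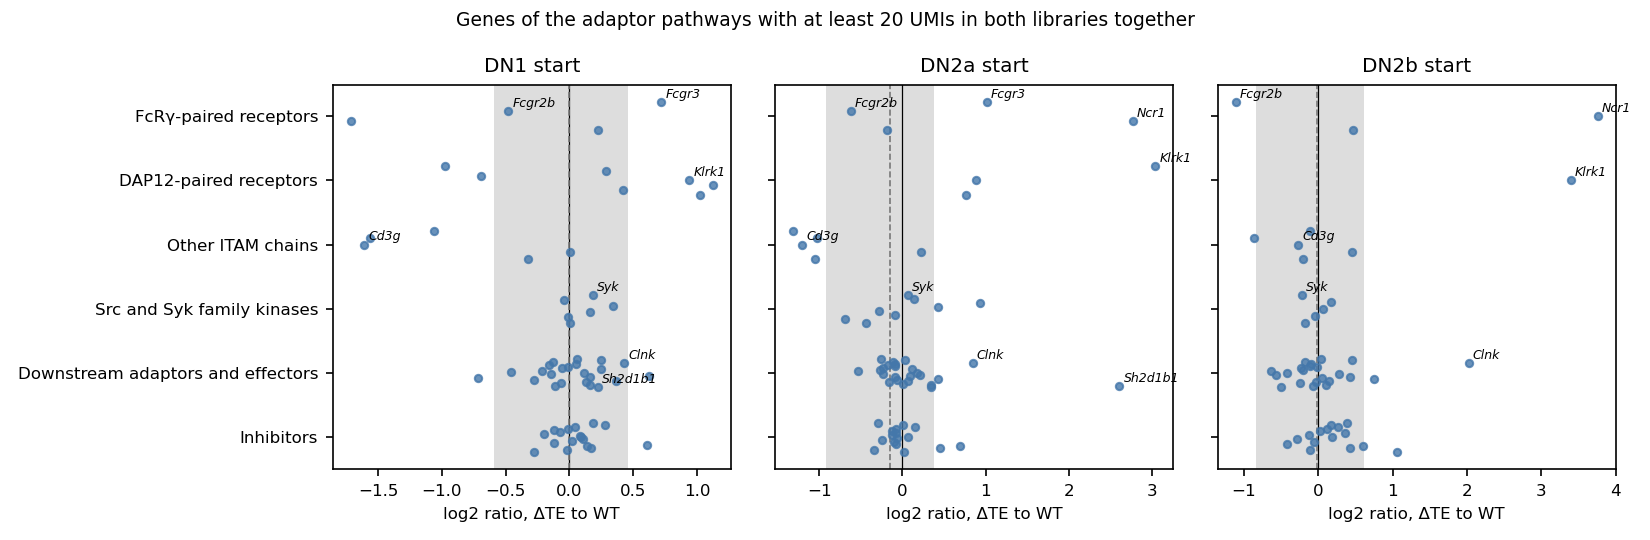
Log2 ratio of ΔTE to WT (x axis, a scale of its own for each start) of the tested genes of 6 pathway lists, 1 point per gene with vertical offsets for legibility. The grey band spans the 5th to the 95th percentile of all tested genes and the dashed line is their median. Klrk1 and Ncr1 lie far right of the band after the DN2a and DN2b starts, Cd3g lies left of it after the DN1 and DN2a starts, and most kinases, effectors and inhibitors lie within it.

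Below the receptors, most tested genes lay within 1.5-fold. Of 9 Src and Syk family kinases, none of 6 tested was past 1.5-fold after the DN1 start and none of 5 after the DN2b start. Yes1 was over 1.5-fold lower after the DN2a start (-0.69, -1.55 to 0.11). The Src family kinases Lyn, Fyn and Lck, with 4316 to 5567 UMIs in all, had ratios between -0.29 and 0.18 after every start. Zap70, the relative of Syk that serves the T cell receptor, had 34 UMIs over all libraries and was not tested. Of the 25 downstream adaptors and effectors, Clnk was the only one over 1.5-fold in the same direction after 2 starts, and 1, 0 and 1 were lower (Card9 after the DN1 start and Vav3 after the DN2b start). The median log2 ratio of that list was 0.050, -0.025 and -0.045, against -0.0041, -0.15 and -0.023 for all tested genes.

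The phospholipases differed in opposite directions. Plcg1, used below the T cell receptor, was lower in ΔTE after every start (-0.45, -0.53 and -0.42) and Plcg2, used below ITAM receptors of B cells and innate cells, was higher (0.12, 0.18 and 0.28), each with wells apart and an interval that did not include 0. Neither passed 1.5-fold. Sh2d1b1, an adaptor of NK cells (EAT-2), stood at 0.88 and 5.38 CPM after the DN2a start (2.61, 1.47 to 3.93). These 3 genes, and the kinases and effectors just named besides Clnk, were singled out after their values were seen. Of 17 inhibitors, Dok3, an adaptor that restrains receptor signalling, was over 1.5-fold higher after the DN1 and DN2a starts (0.61, 0.23 to 0.99, and 0.69, 0.33 to 1.06), and of the inhibitors tested after each start 1, 1 and 2 were higher (Dok2 and Ubash3b after the DN2b start, named after their values were seen) and none was lower.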

How the data were processed

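RNA of 6 libraries was measured by sci-RNA-seq3 (labelled as nuclear RNA, with fixed cells from OP9-DL1 cultures). The authors deposited counts of UMIs per gene and barcode, not normalized and before any filter on cells. The submitters' processing notes name mm9, and the aligner and annotation are not given in the sources used here. Coordinates are therefore GRCm38 (GENCODE M21, RefSeq GRCm38.p6), matched by Ensembl identifier, and RefSeq promoters were found for 4 of the 5 genes, all but Tyrobp.

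Cells were kept by the study's limits (200 genes, 2000 UMIs, 30% mitochondrial UMIs). No doublet caller was used. UMIs were summed per library and per reverse-transcription well, read from the barcode, and scaled to the total of kept cells (CPM). Intervals are exact 95% Poisson intervals, conditional binomial intervals for ratios and Clopper-Pearson intervals for shares, for counting error only, since UMIs of 1 culture hold no replicate. Genes with at least 20 UMIs in the libraries compared were compared with a fold of 1.5 (called tested in the text), with no p-value. Shares used cells thinned to 300 UMIs.

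The 5 genes, the pathway lists and the marker lists were chosen with earlier results of these data known. Named genes were the 5 genes, list genes with at least 50 UMIs over 1.5-fold in the same direction in at least 2 starts, and those with the highest Pearson r of log2(CPM + 10) over the wells. Of the 11 genes of the T cell list, 9 were in the matrices. The code for ratios and intervals was checked on simulated counts with counting error only, which does not test the spread between wells or cultures. Alternatives were 16 planned and 3 added after seeing the data. TMM factors came from edgeR 4.0.16 in R 4.3.3, and all else was computed in Python 3.11.15 with scipy 1.17.1, pandas 2.3.3, numpy 2.4.6 and matplotlib 3.10.9. Some genes of the kinase and effector lists are not reported here.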

Additional observations from a re-analysis of the deposited data

Results flagged for a closer look

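Hcst had opposite signs between starts: its log2 ratio of ΔTE to WT was -0.37 after the DN1 start, -0.21 after the DN2a start and 0.58 after the DN2b start. Syk did too, at 0.18, 0.067 and -0.22. With 1 library per condition, the differences between starts were not tested.

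Barcodes that the filters left out also held more Fcer1g in ΔTE. Above 2000 UMIs, where 15 to 117 barcodes per library remained, its log2 ratio was 0.82 (0.055 to 1.63) after the DN1 start, 1.18 (0.50 to 1.87) after the DN2a start and 3.12 (0.51 to 6.51) after the DN2b start, the last from 2 and 5 UMIs. Above 30% mitochondrial UMIs it was 0.76 (0.56 to 0.96), 1.73 (0.91 to 2.70) and 2.33 (1.83 to 2.85). The WT DN2a library had 518 such barcodes and the ΔTE DN2a library 4240. Barcodes under 200 genes, 165045 to 188394 per library, had Fcer1g ratios of 0.69, 1.10 and 1.88, each with an interval above 0. There Fcer1g stood at 133, 124 and 29.2 CPM in WT and 215, 266 and 108 CPM in ΔTE. The difference was thus also present in barcodes with too few genes to be kept as cells.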

How the results depend on the processing

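No paired analysis was possible because each group is 1 library. Of 240 ratios of the 5 genes under other settings, 213 moved by less than their counting interval, 27 moved by more, and no ratio past 1.5-fold changed sign, though Hcst, at 1.49-fold after the DN2b start, did in 1 setting and Syk did in 3 of 16 after the DN2a start (-0.11, -0.0064 and -0.017) and 3 of 16 after the DN2b start (0.026, 0.11 and 0.027). Fcer1g, Tyrobp and Clnk were above 0 in all 48 alternatives each. For DN2a ratios, a 20% mitochondrial limit gave Fcer1g 1.497 and Tyrobp 0.88, no limit gave 1.03, 0.44, Clnk 0.69 and Syk -0.11, TMM gave Fcer1g 1.39, Clnk 0.99 and Syk 0.21, totals without mitochondrial UMIs gave Fcer1g 1.37 and Clnk 0.97, and ratios relative to genes of like span, added after seeing the data, gave Fcer1g 1.37, Clnk 1.01 and Syk 0.23. Thinning gave Tyrobp 0.56 and Syk 0.32 after the DN1 start. Cells without marker UMIs gave Tyrobp 0.39 (DN2a) and 1.38 (DN2b), Hcst -0.16 (DN2b) and Clnk 0.28 (DN1) and 1.32 (DN2b). Leaving out a well gave Fcer1g 1.05 to 1.39, Tyrobp 0.45 to 0.74 and Clnk 0.71 to 0.99 after the DN2a start (1.05, 0.45 and 0.99 without ΔTE well 2), and Hcst -0.82 to -0.16 after the DN1 start (-0.82 without ΔTE well 1). The causes were not tested.

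Counts of higher and lower genes followed the fold and the minimum, by construction. At 1.2-fold they were 1379 and 1670 (DN1), 901 and 3796 (DN2a) and 1870 and 2323 (DN2b), and at 2-fold 95 and 195, 134 and 488, and 175 and 367. With at least 50 UMIs they were 179 and 273 (DN1), 185 higher (DN2a) and 333 and 465 (DN2b), and with at least 1 UMI 2480 and 2665, 1808 and 3848, and 2472 and 3470. TMM gave 486 higher (DN2a). Leaving out a well, added after seeing the data, gave 338 to 562 higher and 361 to 679 lower genes after the DN1 start, the 562 and 361 being without WT well 3, and 1009 to 2302 lower genes after the DN2a start, the 2302 being without ΔTE well 2. With at least 3 UMIs of a list, Fcer1g stood at 273 CPM in the myeloid and 253 CPM in the ILC or NK group. Depth limits Hcst, the receptors and the DN2b libraries most.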
